A study of Sus scrofa with 61 samples.

Results

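In the longissimus muscle of pig fetuses, a small group of array probes was marked as above background in most fetuses of one breed and in few or none of the other. They were chosen by detection alone. To be a member, a probe had to carry the scanner software's mark for a signal well above background in 80% or more of one purebred genotype's arrays, both days pooled, and in 20% or fewer of the other's. With 17 Large White (LW) and 15 Meishan (MS) arrays, this meant at least 14 LW arrays and at most 3 MS arrays, or at least 12 MS arrays and at most 3 LW arrays. Of 60306 probes that are not controls, 61 were detected in LW only (0.101%) and 29 in MS only (0.0481%). Most of them carry a clone or accession in place of a gene name. Members had to carry a gene symbol, as 23568 probes do, and ND2, SERPINA7 and CCBE1 were left out, which left 13 probes of 11 genes, among 12016 gene symbols on the array. Of the 23553 probes that could then be members, 0.0382% were in the LW set and 0.017% in the MS set. The LW set has 9 probes of 9 genes (MMRN2, MTP18, MOS, COBL, GRK7, DOCK1, IRX3, IFN-DELTA-2 and SLCO4A1) and the MS set has 4 probes of 2 genes (3 probes of IYD and 1 of ST8SIA2).

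The arrays came from 61 male fetuses taken at 90 or 110 days of gestation, 1 array with Cy3-labelled RNA per fetus. LW and MS (LWLW and MSMS) are the purebreds. The cross written LWMS came from MS dams mated to LW sires, and the cross written MSLW from LW dams mated to MS sires. Each genotype had 8 fetuses at day 90, and at day 110 there were 9 LW, 7 MS, 8 LWMS and 5 MSLW fetuses. The sows were inseminated with mixed semen, so a litter held purebred and crossbred fetuses, but which sow carried which fetus is not used here and littermates count as separate fetuses.

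Detection on an array is a threshold: a spot is well above background when its signal exceeds that of the surrounding glass by a set margin, and a spot that fails may still hold a low level of the transcript. In a crossbred fetus, each autosomal gene has an allele from each breed, so the crosses show how a transcript detected in one breed behaves when both genomes are present. Reciprocal crosses carry the same mix of breeds on the autosomes and differ in which breed came through the sow. In these male fetuses the X chromosome and the mitochondrial genome came from the sow. RefSeq lists all 11 member genes on autosomes of the Sscrofa11.1 assembly, MTP18 under its present name MTFP1. Values below are quantile-normalized log2 intensities, given per group as mean ± SD over fetuses, unless stated. The intensity of a probe depends on its sequence as well as on its transcript, so values are compared between fetuses 1 probe at a time, and a probe is called dim only against the detection limit.

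Per array, 34347 to 45684 probes were well above background. The arrays sat on 8 slides. All 9 measured skeletal muscle markers (such as ACTA1, CKM and DES) and all 5 of slow and cardiac muscle were above background on all 61 arrays. So were the 5 markers each of adipocytes, endothelium and fibroblasts, 4 of 5 of Schwann cells, 3 of 4 of epithelium, 3 of 5 of red blood cells, 3 of 6 of leukocytes and 2 of 4 of liver. The liver markers AFP and TTR were above background on 1 and 3 arrays, and the T cell marker CD3E on 3. In such whole-tissue samples, fewer cells of a type and less RNA per cell cannot be told apart. The fetus MS d90 replicate 7 stood apart, with 23 of the 61 LW-only probes above background against a median of 5.5 over the 8 MS fetuses of that day. It detected 5 of the 9 LW members, and the LW set had 7 probes without it. Of the 15 MS fetuses, 8 had none of the 9 LW members above background.

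**Figure D1:**
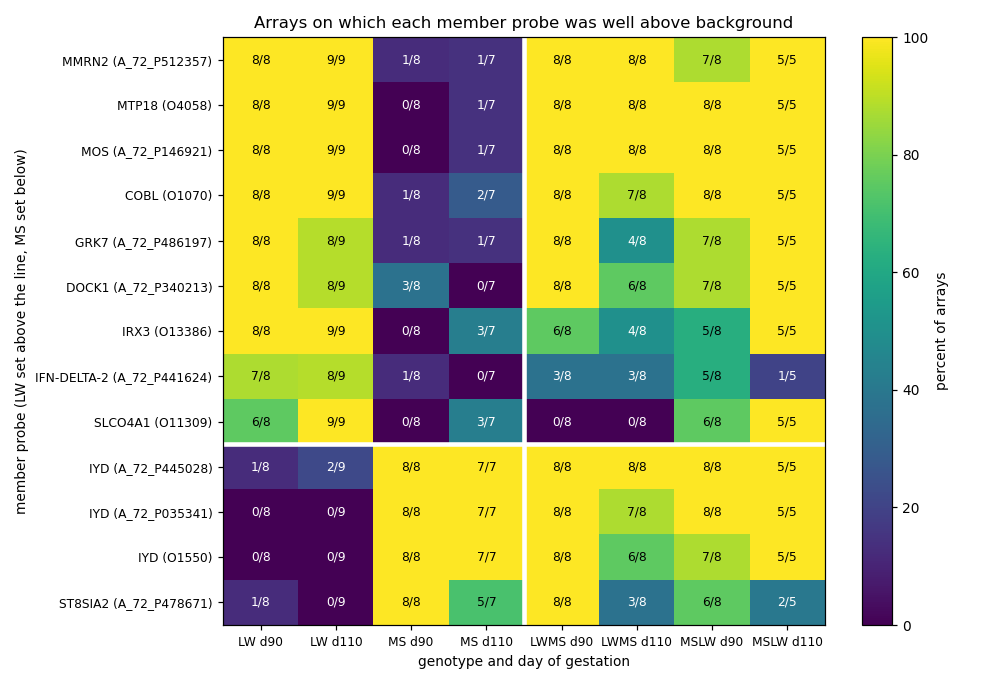
Number of arrays on which each of the 13 member probes was well above background (rows; LW set above the white line, MS set below) in each genotype and day (columns), coloured by the percent of arrays, with the purebreds that defined the sets in the left 4 columns. In the crosses, SLCO4A1 was above background on 0 of 16 LWMS arrays and on 11 of 13 MSLW arrays.

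The members differ widely in function and few are known as muscle genes. MMRN2 (multimerin 2) is an extracellular matrix glycoprotein of endothelium, the lining of blood vessels. MTP18 (MTFP1) is a protein of the inner mitochondrial membrane with a role in mitochondrial fission. MOS is a kinase that activates the MAP kinase pathway and is known from the maturing oocyte. COBL (cordon-bleu) nucleates actin filaments, and DOCK1 activates the small GTPase Rac and takes part in cell migration and in the fusion of myoblasts. GRK7 is a kinase of cone opsins in the retina. IRX3 is a homeobox transcription factor of the Iroquois family. IFN-DELTA-2 belongs to the delta family of type I interferons. SLCO4A1 is a membrane transporter of organic anions, thyroid hormones among them. In the MS set, IYD (iodotyrosine deiodinase) recovers iodide from iodotyrosines and is best known from the thyroid. ST8SIA2 is a sialyltransferase that builds polysialic acid on the neural cell adhesion molecule NCAM.

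The purebred values chose the members, so they are a description without a test. The best separated probes were 2 of the 3 IYD probes, above background on 15 of 15 MS arrays and on 0 of 17 LW arrays. MTP18 and MOS were on 17 of 17 LW arrays and on 1 MS array each, MMRN2 on 17 and 2, and COBL and IRX3 on 17 and 3. GRK7 was on 16 LW and 2 MS arrays, DOCK1 on 16 and 3, IFN-DELTA-2 on 15 and 1, and SLCO4A1 on 15 and 3. ST8SIA2 was on 13 MS arrays and 1 LW array. Of the members, COBL, DOCK1, IRX3, SLCO4A1 and the third IYD probe (A_72_P445028, 15 MS and 3 LW arrays) sat at the limit of the rule. Just outside it were 6 probes on the LW side (IRX6, LRRIQ3, MAP3K1, RUFY4, SAG and SLCO1A2) and 4 on the MS side (C19ORF18, CLDN14, CYP3A39 and SLC2A12). With another mark of the same software, which only asks whether a spot differs from its background, 4 probes formed the LW set, none of them shared with the 9, and 3 the MS set, 1 of them shared.

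The members differ in how far they stood above the detection limit. Averaged over LW fetuses, MMRN2 reached 8.97, MTP18 8.77, MOS 7.07 and COBL 6.58, while GRK7 (4.96), DOCK1 (4.89), IRX3 (4.87), IFN-DELTA-2 (4.60) and SLCO4A1 (4.52) lay near the limit of detection. On the 61 arrays, the lowest value marked as well above background ranged from 2.89 to 5.42, with a median of 3.74. For the dim members, detection in one breed therefore rests on a small difference in intensity.

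Where no array of the other breed passed on a given day, the difference has only a lower bound, set against the lowest signal that counted as detected. The bounds are for the member probe and for the main background handling only. At day 90, LW was at least 15-fold higher than MS for MTP18, at least 12.7-fold for MOS, at least 1.51-fold for IRX3 and at least 1.14-fold for SLCO4A1. At day 110 the bound was at least 1.96-fold for DOCK1 and at least 1.46-fold for IFN-DELTA-2. The other DOCK1 probes, which were brighter, differed by only 0.05 and 0.26 (log2) between the breeds on that day. MS was at least 5.04-fold higher than LW at day 90 and at least 7.81-fold higher at day 110 for IYD on probe O1550, and at least 6.64-fold and 10.8-fold higher on probe A_72_P035341. For ST8SIA2 at day 110 the bound was at least 1.25-fold. For MMRN2, 1 MS array was above background on each day, and no bound is given.

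**Figure D2:**
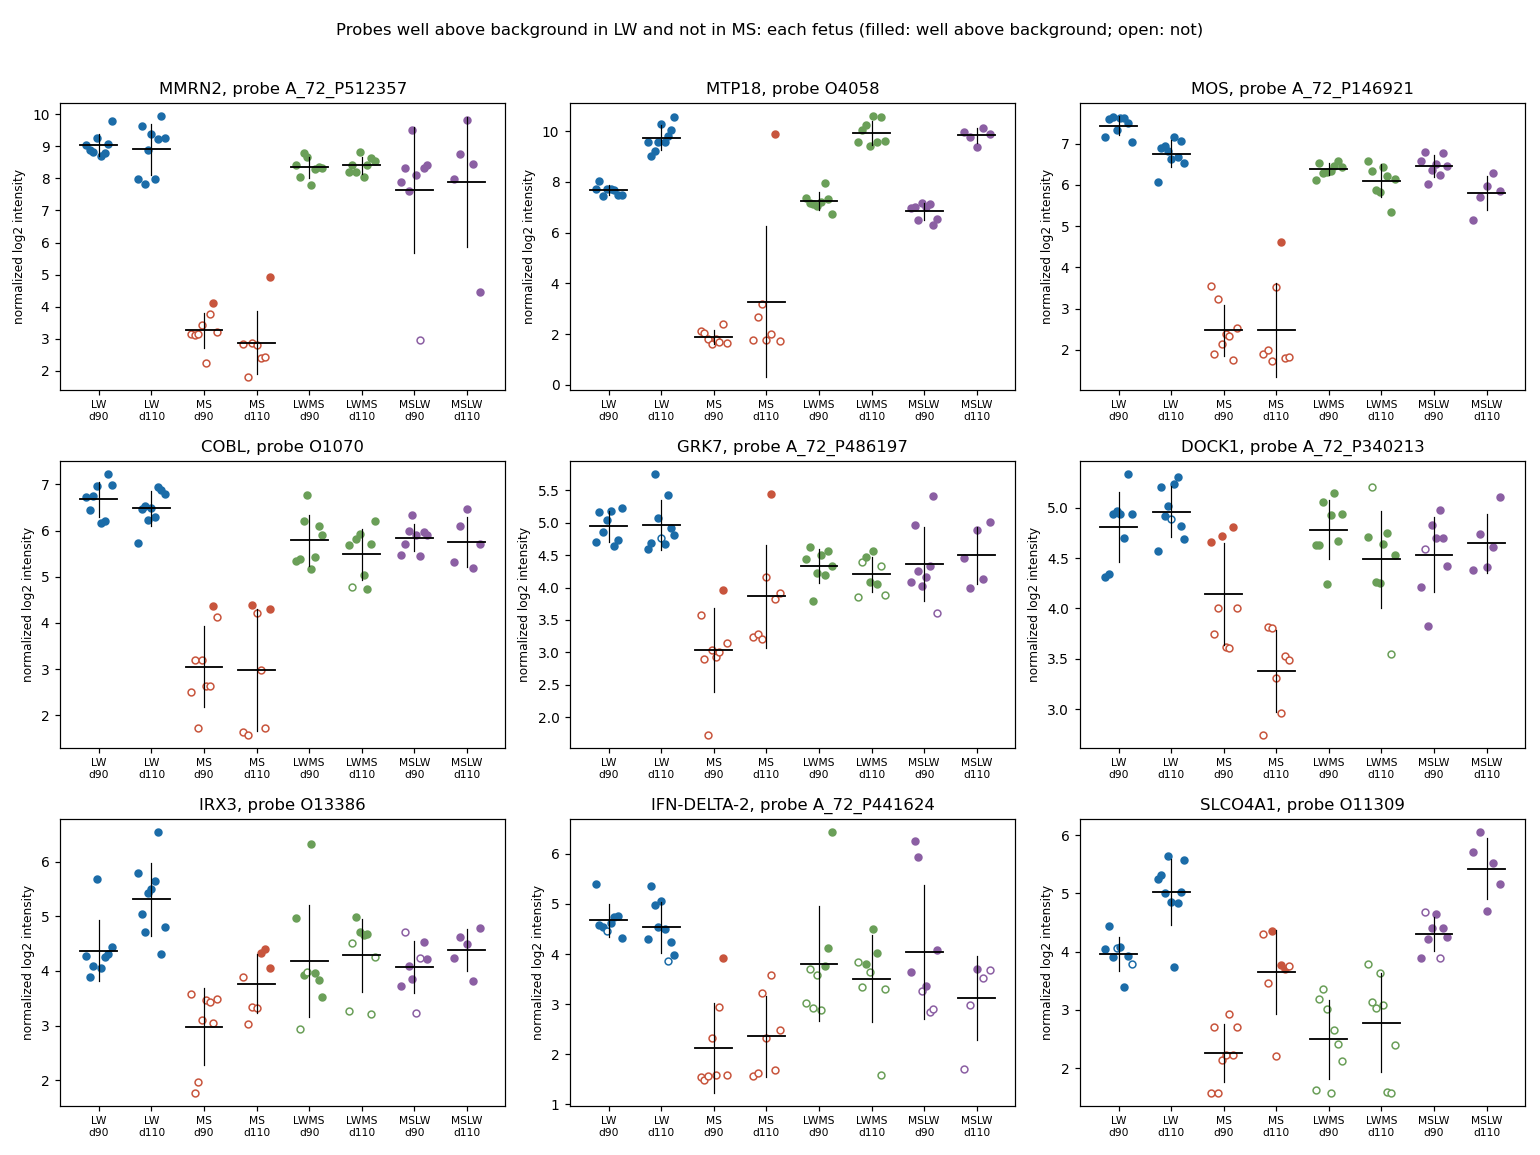
Normalized log2 intensity of the 9 probes of the LW set in each fetus, by genotype and day of gestation (filled, well above background; open, not; horizontal lines, means; vertical lines, 1 SD). A single MS fetus of day 110 reached 9.88 for MTP18, and 2 MSLW fetuses fell to 2.97 and 4.47 for MMRN2.

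In the crosses, which took no part in the choice, 9 of the 13 member probes (69.2%) reached detection in 80% or more of the 29 arrays. Among all probes the share was 63.6%, and among the probes with a gene symbol that were not members it was 78.0%. None of the 13 was on 20% of the cross arrays or fewer, where 15037 of all 60306 probes lay. The rule left out probes rarely detected in both breeds and probes detected in most arrays of both. These contrasts with other probes were therefore largely set by the choice. MTP18, MOS and the IYD probe A_72_P445028 were detected on 29 of 29 arrays. MMRN2, COBL and the IYD probe A_72_P035341 were on 28, DOCK1 and the IYD probe O1550 on 26 and GRK7 on 24. IRX3 (20 arrays), ST8SIA2 (19), IFN-DELTA-2 (12) and SLCO4A1 (11) were in between. A LWMS array of day 90 had 6 to 8 of the 9 LW members above background and one of day 110 had 3 to 8. In MSLW the numbers were 5 to 9 and 8 to 9, against 7 to 9 in LW and 0 to 5 in MS over both days.

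The mean level of the crosses lay between those of the purebreds for all 4 probes of the MS set, in each cross and on each day. For the LW set it lay between for 9 of 9 probes in LWMS and 8 of 9 in MSLW at day 90, and for 7 of 9 in each cross at day 110. The exceptions were SLCO4A1 and, at day 110, MTP18. Relative to LW, the median level over the 9 genes was 61.6% in LWMS and 64.4% in MSLW at day 90, and 58.9% and 60.3% at day 110. MOS, for example, stood at 48.1% of LW in LWMS and 51.0% in MSLW at day 90. At day 110 these values were 63.4% and 51.6%. ST8SIA2 stood at 54.1% and 53.5% of MS at day 90 and at 56.2% and 63.4% at day 110. On that later day it was above background on only 3 of 8 LWMS and 2 of 5 MSLW arrays. The 3 IYD probes stood at 46.5 to 49.7% of MS in LWMS and 50.5 to 51.8% in MSLW at day 90. At day 110 they stood at 24.5 to 46.5% in LWMS and 70.4 to 71.3% in MSLW. These ratios share the purebred arrays that chose the members and carry no test.

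The reciprocal crosses were compared to ask whether these transcripts differ with the direction of the cross. Each cross came from sows of a single breed. The uterus, the parent an allele came from, and the sow's X chromosome and mitochondria therefore cannot be told apart. Which fetuses share a sow is not in the labels. The p-values count littermates as separate fetuses and do not measure the spread between sows. With limma and Benjamini-Hochberg adjustment at 1% over 42436 probes, 1 of the 13 member probes differed at day 90, with 0.5% of all probes called, and 2 at day 110, with 0.917% called. All of these calls were lower in LWMS, a direction in which 0.351% of all probes were called at day 90 and 0.547% at day 110 (0.148% and 0.37% were called as higher in LWMS). They belong to SLCO4A1 on both days and to 1 of the 3 IYD probes at day 110. For the other members the adjusted p (limma) ran from 0.728 to 0.998 at day 90 and from 0.0341 to 0.968 at day 110. The median difference over the 13 probes was -0.04 at day 90 and -0.17 at day 110, against -0.01 and 0.00 over all probes.

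**Figure D3:**
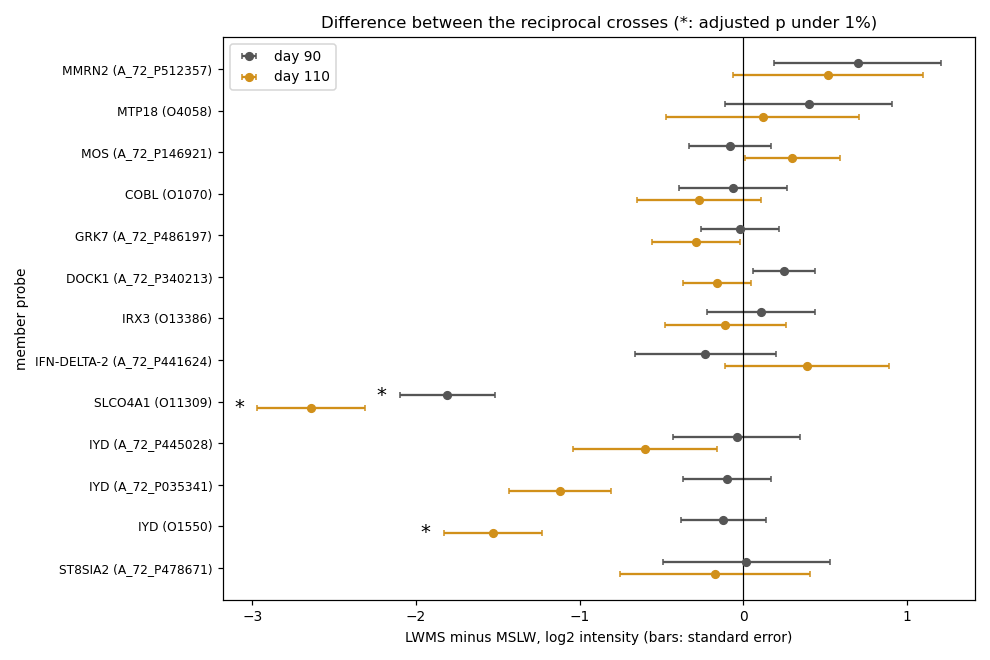
Difference between the reciprocal crosses (LWMS minus MSLW, log2 intensity) of each member probe at day 90 (grey) and day 110 (orange), with standard errors from the limma fit. Stars mark an adjusted p under 1%: SLCO4A1 at -1.81 and -2.64, and IYD on probe O1550 at -1.53 at day 110.

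SLCO4A1 was detected in the cross from LW sows and not in the cross from MS sows. It has 1 probe listed under its symbol, read from a dim spot. The gene is named by the array alone. Which strand of the gene the probe reads was not checked against a transcript, so its signal may not be the SLCO4A1 transcript. The probe has the following sequence (5′ to 3′).
SLCO4A1 (O11309): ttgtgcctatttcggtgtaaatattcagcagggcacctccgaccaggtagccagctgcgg

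In LWMS the lowest, median and highest values were 1.58, 2.53 and 3.36 at day 90 and 1.58, 3.06 and 3.79 at day 110, and none was above background. In MSLW they were 3.90, 4.33 and 4.69 at day 90, and the 5 fetuses of day 110 had 5.71, 6.05, 4.70, 5.52 and 5.16. The crosses did not overlap on either day. LW fetuses had 3.40 to 4.45 at day 90 (median 3.99) and 3.73 to 5.64 at day 110 (median 5.03). MS fetuses had 1.58 to 2.93 (median 2.23) and 2.21 to 4.36 (median 3.76). LWMS thus overlapped MS, whose sows it shares, on both days, while at day 110 only its highest value passed the lowest LW value. The mean of MSLW reached 127.0% of the LW level at day 90 and 132.0% at day 110.

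The difference between the crosses (LWMS minus MSLW) was -1.81 ± 0.29 (SE) at day 90 (limma, adjusted p = 1.9e-05) and -2.64 ± 0.33 at day 110 (adjusted p = 5.81e-08). Against the detection limit, and with the main background handling, MSLW was at least 1.83-fold higher at day 90 and at least 2.52-fold higher at day 110. At day 90, 6 of 8 MSLW arrays were above background. Other handlings, given below, yielded differences smaller than these bounds. LWMS was the lower within all 8 slides that held both crosses at day 90 and within all 5 at day 110. The size of the difference depended on how the background was handled. It was -0.55 at day 90 and -1.09 at day 110 with the median signal, -0.62 and -1.04 with the deposited values, and -0.28 and -0.67 with normexp background correction, where day 90 no longer passed (limma, adjusted p = 0.015). The detection marks themselves, 0 of 16 against 11 of 13 arrays, gave p = 2.25e-06 by a two-sided Fisher's exact test and 0.068 after adjustment over 60306 probes. That test called 0 probes in all (0.0%), with 243 at an unadjusted p under 0.05 and SLCO4A1 the only member among them.

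Among the other organic anion transporters of the SLCO family, 5 genes have 9 probes listed under their symbols (further ones are listed under locus numbers), of which 4 were above background on every purebred array and none was a member. SLCO1A2 on probe O7651, singled out after its values were seen, was on 13 LW arrays and 0 MS arrays, and in the crosses on 14 of 16 LWMS but 4 of 13 MSLW arrays. This is the opposite order to that of SLCO4A1. Its difference between the crosses, 1.64 ± 0.58 (SE) at day 90 and 1.61 ± 0.66 at day 110, did not pass (limma, adjusted p = 0.249 and 0.208). Of the 32 tested probes of relatives of the members, 0 were called between the crosses at day 90 by limma and 1 at day 110, SLCO2B1 on A_72_P121746, which was lower in LWMS by -0.80 ± 0.16 (adjusted p = 0.00203). Its other probe had -0.60 ± 0.23 (adjusted p = 0.164).

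IYD was the clearest case of an MS transcript, seen by 3 probes that tile the same stretch of the gene. The sequences (5′ to 3′) are shown because the probes disagree in 2 fetuses. Capitals mark the bases at which a probe differs from A_72_P035341 within their overlap.
IYD (A_72_P035341): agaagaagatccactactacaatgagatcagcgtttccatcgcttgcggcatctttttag
IYD (O1550): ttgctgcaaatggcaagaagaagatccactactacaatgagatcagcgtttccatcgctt
IYD (A_72_P445028): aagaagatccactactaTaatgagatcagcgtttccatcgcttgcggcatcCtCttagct

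Probes O1550 and A_72_P035341 overlap by 45 bases with 0 mismatches, and A_72_P445028 overlaps A_72_P035341 by 58 bases with 3 mismatches. They are therefore not independent readings of the gene. On O1550, LW fetuses stayed between 1.58 and 1.72 at day 90 (median 1.63) and between 1.60 and 2.49 at day 110 (median 1.67). MS fetuses ranged from 4.60 to 6.59 (median 5.95) and from 6.36 to 7.56 (median 7.0). The breeds did not overlap.

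The crosses lay between, with 4.28 to 5.30 (median 4.61) in LWMS and 4.36 to 5.50 (median 4.85) in MSLW at day 90. At day 110, LWMS ranged from 3.53 to 5.99 (median 5.37), and the 5 MSLW fetuses had 6.46, 6.75, 5.85, 6.81 and 6.45. All but 1 of the MSLW values thus exceeded the highest LWMS value. On this probe LWMS was lower by -1.53 ± 0.30 (SE) at day 110 (limma, adjusted p = 0.000939), and within all 5 slides that held the pair of crosses. The difference was -0.96 with the median signal, -0.95 with the deposited values and -0.67 with normexp, and passed in each.

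The other 2 probes gave smaller differences that did not pass, -1.12 ± 0.31 (adjusted p = 0.0341) on A_72_P035341 and -0.60 ± 0.44 (adjusted p = 0.59) on A_72_P445028. When the crossbred fetuses were fitted without the purebreds, the call on O1550 was lost (limma, adjusted p = 0.0159). At day 90 the difference was between -0.12 and -0.04 on the 3 probes. The difference in age change between the crosses was called for 0 of the 13 members, with 0.033% of all probes called (0.0236% as positive and 0.00943% as negative). Of the members, O1550 (unadjusted p = 0.000718, adjusted p = 0.145) and A_72_P035341 (0.0163 and 0.417) had an unadjusted limma p under 0.05.

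On probe A_72_P445028 alone, LW d110 replicate 4 reached 7.59 against 4.59 in the next LW fetus, and LWMS d110 replicate 2 reached 7.99 against 6.52 in the next LWMS fetus. The first had 3.48 and 1.67 on A_72_P035341 and O1550 and was above background on neither. The second had 5.08 and 3.67 there, again above background on neither. So these 2 fetuses had the highest values of their groups on the probe with the 3 differing bases and were not marked as well above background on the other pair. For the LWMS fetus this does not mean a low signal on A_72_P035341. All LWMS fetuses of day 90 were marked on that probe, with values down to 4.51. On the array of this LWMS fetus, DOCK1 at 5.20 was not marked either. Without LWMS d110 replicate 2, the differences between the crosses at day 110 were -0.82 on A_72_P445028 (adjusted p = 0.387), -1.01 on A_72_P035341 (0.069) and -1.35 on O1550 (0.00326).

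**Figure D4:**
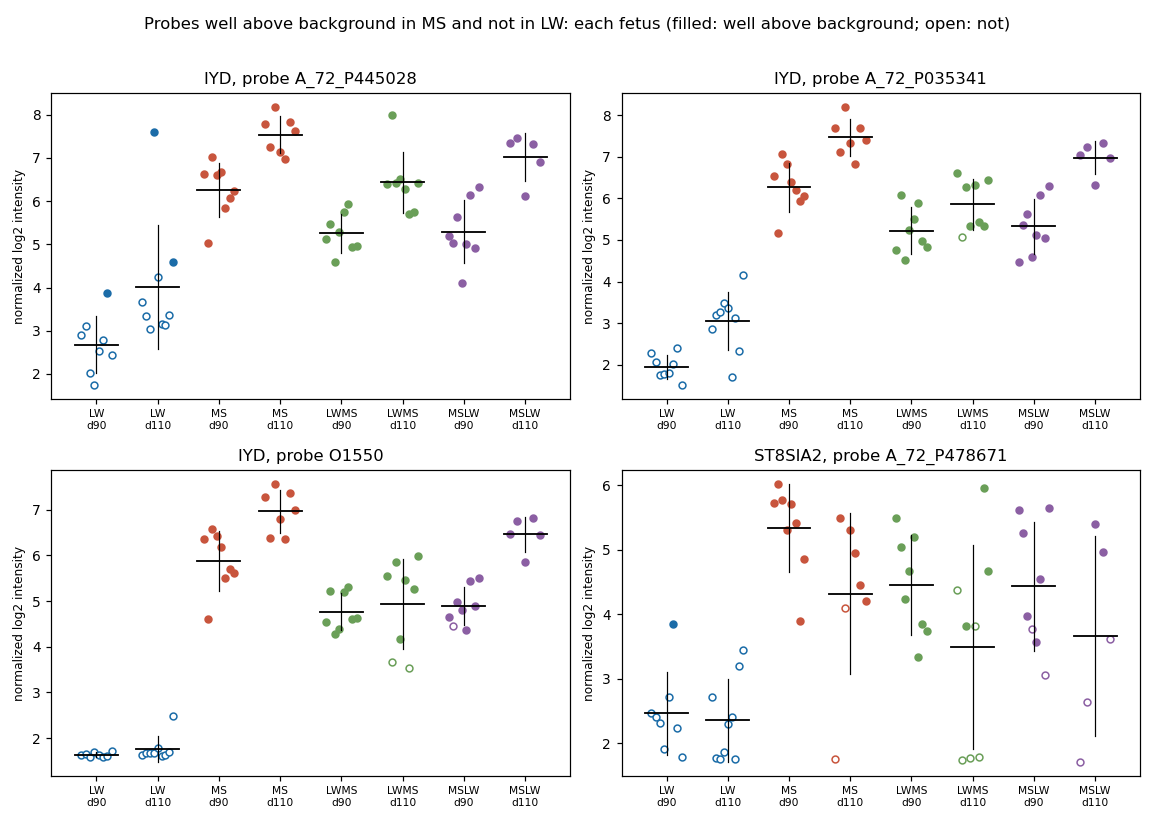
Normalized log2 intensity of the 4 probes of the MS set in each fetus, by genotype and day of gestation, drawn with the same symbols as for the LW set (filled, well above background; lines, mean and 1 SD). On A_72_P445028, 1 LW fetus of day 110 stood at 7.59 and 1 LWMS fetus at 7.99, while both were not above background on the other 2 IYD probes.

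Age was compared in the crosses, where 5 of the 13 member probes were higher at day 110, all of them called in that direction (29.9% of all probes were called as higher, 30.1% as lower and 60.0% in either direction). They were MTP18, SLCO4A1 and the 3 IYD probes. In LW, 2 of the 9 LW members were called, MTP18 and SLCO4A1, both higher at day 110 (21.8% of all probes called in that direction and 45.3% in either). In MS, 3 of the 4 MS member probes were called, all of IYD and all higher at day 110 (28.6% and 56.6%). The rule pooled the days and took no account of age, but it used the purebred arrays, while the crosses had no part in it. The median age change of the 13 probes in the crosses was 0.16, against 0.04 over all probes.

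Of the member probes called with age, MTP18 had the largest change. In LW it ranged from 7.46 to 8.03 at day 90 (median 7.72) and from 9.02 to 10.57 at day 110 (median 9.58), without overlap. LWMS ranged from 6.74 to 7.96 (median 7.19) and from 9.41 to 10.59 (median 9.83), and MSLW from 6.31 to 7.18 (median 7.0) at day 90. The 5 MSLW fetuses of day 110 had 9.98, 9.77, 9.38, 10.14 and 9.89. The crosses were at 74.2% (LWMS) and 56.2% (MSLW) of the LW level at day 90 and at 115.0% and 106.0% of it at day 110.

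The rise was 2.85 ± 0.39 (SE) in the crosses (limma, adjusted p = 4.36e-09), 7.20-fold, and was seen on each of the 8 slides. In LW it was 2.08 ± 0.50 (adjusted p = 0.000345), 4.21-fold. In MS, none of the 8 fetuses of day 90 was well above background, at 1.59 to 2.41. At day 110, 6 of 7 MS fetuses had 1.71 to 3.17, while replicate 6 had 9.88, a value within the LW range. A further probe, listed under a locus number that RefSeq assigns to MTFP1, has the same 60 letters and so repeats the measurement. It read 9.84 in that fetus, and was above background on 17 LW arrays and 1 MS array.
MTP18 (O4058): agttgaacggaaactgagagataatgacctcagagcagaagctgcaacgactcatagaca

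IYD was higher at day 110 in the crosses by 1.46 ± 0.29 (SE) on A_72_P445028, 1.14 ± 0.21 on A_72_P035341 and 0.87 ± 0.20 on O1550 (limma, adjusted p = 1.68e-05, 2.74e-06 and 9.78e-05). In MS the changes were 1.28, 1.19 and 1.09 (adjusted p = 0.00453, 0.00022 and 0.000351), and all 3 probes were higher at day 110 within each of the 7 slides with MS fetuses of both days. With normexp the changes in the crosses were 0.76, 0.56 and 0.43, and still passed. Within LWMS the change on O1550 was positive on 5 of 8 slides, from -1.77 to 1.58, and within MSLW on 5 of 5, from 0.95 to 2.46.

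SLCO4A1 was higher at day 110 by 1.07 ± 0.28 (SE) in LW (limma, adjusted p = 0.000848), on 7 of 7 slides. The rise was not particular to LW. In MS the change was 1.39 ± 0.30 (SE), also on 7 of 7 slides. There, 0 of 8 arrays were above background at day 90 and 3 of 7 at day 110. In the crosses the change was 0.71 ± 0.22 (adjusted p = 0.00341). LWMS was not well above background on either day, with a change that was positive within 4 of 8 slides. In MSLW it was positive within 5 of 5, from 0.29 to 1.83. The change was 0.56 in LW and 0.37 in the crosses with the median signal, 0.58 and 0.44 with the deposited values and 0.33 and 0.24 with normexp, and passed in each. Without MSLW d110 replicate 2, the change in the crosses was 0.63 and did not pass (adjusted p = 0.012). IRX3 and MOS in LW, at 0.94 ± 0.32 (adjusted p = 0.0106) and -0.68 ± 0.25 (0.0152), missed the threshold narrowly. ST8SIA2 had -1.01 ± 0.52 (0.085) in MS and -0.86 ± 0.38 (0.0425) in the crosses.

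Other probes were found by name for 4 of the 11 genes, 8 in all, and 7 of these were above background on every LW and every MS array. The exception is the copy of the MTP18 probe. For MMRN2, the 4 other probes were detected in both breeds, but the breeds did not overlap on any of them. LW exceeded MS by 9.79-fold at day 90 and 7.77-fold at day 110 on A_72_P382258. On A_72_P489597 these folds were 17.8 and 14.8, on A_72_P706677 they were 10.8 and 8.17, and on O8293 they were 2.38 and 1.95. The first of them shares a run of 48 bases with the member probe, and the bases outside that run are in capitals here.
MMRN2 (A_72_P512357): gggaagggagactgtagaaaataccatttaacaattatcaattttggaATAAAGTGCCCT
MMRN2 (A_72_P382258): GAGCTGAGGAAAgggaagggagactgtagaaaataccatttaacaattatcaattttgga

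On the member probe, LW ranged from 8.70 to 9.79 at day 90 (median 8.95) and from 7.84 to 9.94 at day 110 (median 9.23). MS ranged from 2.24 to 4.11 (median 3.18) and from 1.82 to 4.94 (median 2.82), and LWMS from 7.81 to 8.79 (median 8.35) and from 8.03 to 8.81 (median 8.43). The MSLW fetuses split. At day 90, 7 of 8 had 7.61 to 9.51 and replicate 6 had 2.97, not well above background. At day 110 the values were 7.98, 8.76, 9.81, 8.44 and, in replicate 5, 4.47.

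These 2 MSLW fetuses were low on the other MMRN2 probes too, near the MS means. Replicate 6 of day 90 had 6.16, 6.73, 7.33 and 8.06 on A_72_P382258, A_72_P489597, A_72_P706677 and O8293, where MS fetuses of that day averaged 6.26, 6.16, 6.91 and 7.72. Replicate 5 of day 110 had 6.57, 6.41, 7.18 and 8.16, where MS fetuses averaged 6.44, 6.29, 7.21 and 8.12. On O8293 alone, replicate 8 of day 90 was also low, at 6.68. Both of the 2 fetuses were above background for MTP18, at the level of the other MSLW fetuses (the copy of its probe read 6.86 and 9.89). Without the first fetus, MSLW stood at 8.31 ± 0.60 (SD, n = 7) at day 90, and without the second at 8.75 ± 0.78 (n = 4) at day 110. The difference between the crosses on the member probe at day 90, 0.70 ± 0.51 (SE), was 0.03 without the first fetus (limma, adjusted p = 0.728 and 0.994). At day 110 it was 0.52 ± 0.58 with all fetuses and -0.34 without the second (adjusted p = 0.779 and 0.879). PECAM1, an endothelial marker, averaged 13.88 in LW and 13.94 in MS at day 90 and 13.04 and 12.79 at day 110. CDH5, another, averaged 12.61 in both at day 90 and 11.56 and 11.27 at day 110, and KDR averaged 10.93 in LW and 10.21 in MS at day 90 and 10.07 and 8.76 at day 110. VWF averaged 10.68 in LW and 11.12 in MS at day 90 and 12.29 and 12.27 at day 110, and TEK 8.72 and 8.89 at day 90 and 9.02 and 9.0 at day 110. The part of endothelial content in the MMRN2 values was not tested.

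DOCK1 and GRK7 showed the other pattern. The 2 other DOCK1 probes were above background on all arrays and nearly level between the breeds. LW and MS differed by -0.07 at day 90 and 0.05 at day 110 on A_72_P091661, and by 0.07 and 0.26 on O11179. On the member probe of DOCK1, 3 of 8 MS arrays were above background at day 90 and 0 of 7 at day 110. The other GRK7 probe, A_72_P223602, was on all arrays, with LW higher by 0.82 at day 90 and 0.30 at day 110 and overlapping ranges. On the GRK7 member probe 1 MS array was above background on each day, and MS d110 replicate 5 reached 5.45, within the LW range of 4.59 to 5.75. For DOCK1 and GRK7, then, 1 probe near the detection limit met the rule while the other probes of the same gene were above background in all fetuses of both breeds.

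**Figure D5:**
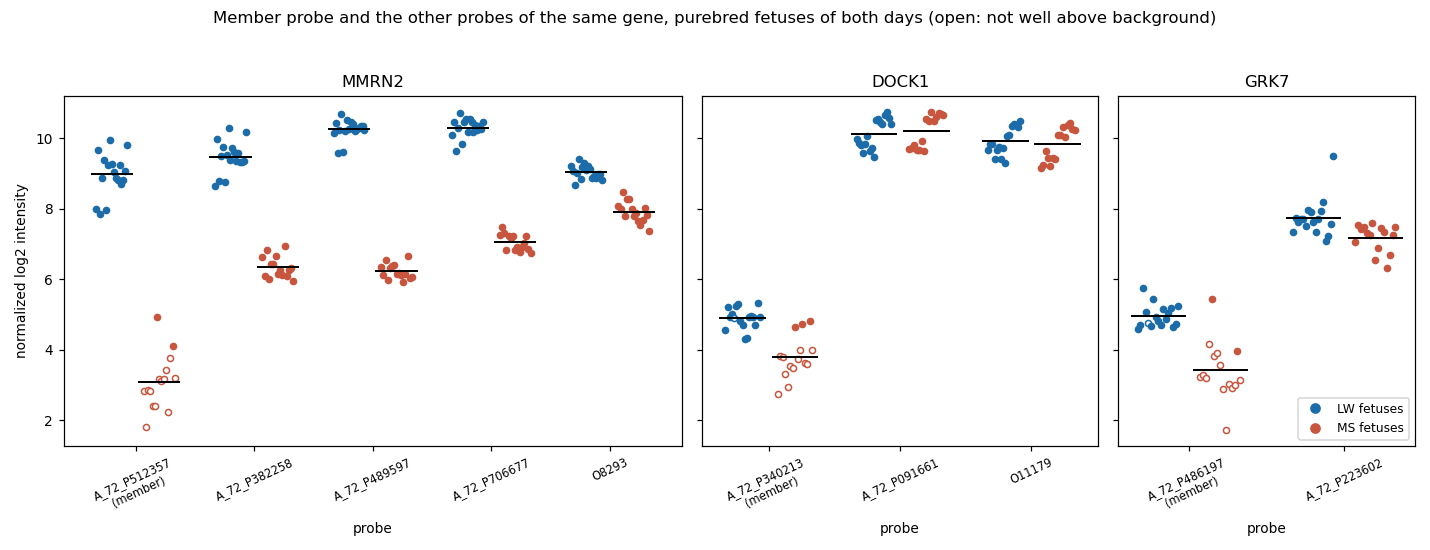
Normalized log2 intensity of the member probe and of the other probes of MMRN2, DOCK1 and GRK7 in LW (blue) and MS (red) fetuses of both days; open points were not well above background and black lines are means. All 5 MMRN2 probes separated the breeds, while the other probes of DOCK1 and GRK7 overlapped.

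For COBL, IRX3, MOS, SLCO4A1, IFN-DELTA-2, IYD and ST8SIA2 the array lists no probe under the gene's symbol beyond the members. Probes listed under a clone or accession may hold further ones. COBL had 6.69 ± 0.38 (SD, n = 8) in LW and 3.05 ± 0.87 (n = 8) in MS at day 90, and 6.48 ± 0.38 (n = 9) and 2.98 ± 1.33 (n = 7) at day 110. In the crosses its 4 group means ran from 5.49 to 5.85. Of the 5 LW members near the detection limit, IFN-DELTA-2 had the largest SDs in the crosses at day 90, 1.15 in LWMS and 1.33 in MSLW. LWMS ranged from 2.89 to 6.43 and MSLW from 2.85 to 6.26. In the MS set, the SDs of ST8SIA2 in the crosses were 1.58 and 1.55 at day 110.

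Gene families were listed by the letters of the symbol given on the array, for the 5 members with a stem of at least 3 letters before a digit and relatives on the array. None of their 41 probes of 24 symbols met the rule, 25 were above background on every purebred array and 6 were on at most 20% in both breeds. Of the interferon delta genes, IFN-DELTA-1 was the closest to IFN-DELTA-2, on 17 LW and 7 MS arrays with means of 6.58 and 3.80, and on all 29 cross arrays. IFN-DELTA-6 and IFN-DELTA-9 were on all purebred arrays with similar means (8.42 against 8.25, and 8.54 against 8.31), and IFN-DELTA-4 and IFN-DELTA-8 on at most 1 purebred array each. Of the Iroquois genes, IRX6 was on 13 LW and 3 MS arrays, and IRX1 and IRX4 on 1 and 0 LW arrays and on no MS array. The 7 DOCK genes had 13 of 17 probes on every purebred array, and the 4 GRK genes 6 of 7.

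Within 2 protein-coding genes in the RefSeq order, 27 neighbouring genes had 69 probes. None met the rule, 49 were above background on every LW and MS array, and 9 were on at most 20% in both breeds. FTO beside IRX3, for example, averaged 6.94 in LW and 6.49 in MS on probe A_72_P165476, and BMPR1A beside MMRN2 averaged 8.43 and 8.05 on probe A_72_P314753. Some neighbours differed more. GRB10 beside COBL was on 16 LW and 7 MS arrays on probe A_72_P299319 (5.44 and 3.72), while its other probes were on every purebred array. PPP1R14C beside IYD averaged 3.16 in LW and 4.74 in MS. LDB3 near MMRN2 went against its member on probe A_72_P508586, with 9.03 in LW and 10.33 in MS.

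The base composition of the members was ordinary. The 13 probes had 35 to 55% G and C (median 43.3%), against a median of 41.7% over all probes. No run of 20 bases was shared with a probe of a gene other than the member's own, on either strand.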

How the data were processed

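The authors deposited the scanner output of every array, spot by spot (Agilent Feature Extraction 10.10.1.1, per the submitters' processing notes), as intensity values not normalized between arrays. They also deposited log2 values that they quantile normalized (44368 spots), used here as an alternative. They matched quantile-normalized log2 median signals with a median absolute difference of 0.00061. The "other" columns of the deposited files are the software's marks (well above background, positive and significant, non-uniform, saturated), the probe sequence and its names. No genome build is given with the deposited data. The Sscrofa11.1 assembly named above is that of the RefSeq gene list.

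Controls and non-uniform spots (4 to 802 per array) were left out, the background-corrected intensity was quantile normalized and log2 transformed, and the 42436 probes detected in 80% or more of any of the 8 groups' arrays were kept. The 8 groups were fitted with limma, with two-sided moderated tests and Benjamini-Hochberg adjustment over all kept probes at 1%. The labels do not say which fetuses are littermates, so p-values measure the spread between these fetuses. The purebreds chose the members, so breed differences were not tested. Detection in the crosses was tested with Fisher's exact test. The number of arrays limits the precision.

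Members and lists were chosen with earlier results of these data known. All members are named, and values by group follow a rule: probes on every array of one breed and none of the other, members called in a cross comparison, or genes with several probes. The values of MMRN2, DOCK1, GRK7, COBL and single fetuses were added after they were seen. Of 200 simulated probes among 40448 changed by 1 (log2), the share recovered was 80% and 73% between the crosses at day 90 and 110, 90% for age in the crosses, 85% in LW, 81.5% in MS and 54% for the difference in age change. These shares hold for probes drawn from all kept ones, not for the members. Between the crosses at day 90, the SE was 0.51 for MMRN2, MTP18 and ST8SIA2 and 0.19 for DOCK1. Alternatives were other limits, days and marks for the rule, the median signal, normexp (offset 50), scaling to the 75th percentile, the deposited values, other filters, non-uniform spots kept, the slide as a block, trended robust moderation, crossbred or purebred fetuses fitted alone, and single fetuses left out. Software was R 4.3.3, limma 3.58.1, data.table (version 1.17.8), Python 3.11.15, numpy 2.4.6, scipy 1.17.1, pandas 2.3.3 and matplotlib 3.10.9.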

Additional observations from a re-analysis of the deposited data

Results flagged for a closer look

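For 1 probe per member gene, 88 groups of 5 to 9 fetuses were searched for a fetus far from the others by Dixon's test at 95%. In all, 14 groups were flagged. Chance flags about 1 in 20 groups where values follow a normal distribution. Many groups here lie near background, and the purebred values also chose the members. The count of flags therefore cannot be set against that rate. Most flags rest on dim values. In MS d110, MTP18 stood at 9.88 in replicate 6 (next fetus 3.17), GRK7 at 5.45 in replicate 5 (next 4.17), MMRN2 at 4.94 in replicate 7 (next 2.86), SLCO4A1 at 2.21 in replicate 4 (next 3.46) and ST8SIA2 at 1.75 in replicate 1 (next 4.09). In LW d110, IYD stood at 7.59 in replicate 4 (next 4.59) and SLCO4A1 at 3.73 in replicate 6 (next 4.83). In LW d90, IRX3 stood at 5.68 in replicate 4 (next 4.43), IFN-DELTA-2 at 5.40 in replicate 1 (next 4.76) and ST8SIA2 at 3.85 in replicate 6 (next 2.72).

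In the crosses, MMRN2 stood at 2.97 in MSLW d90 replicate 6 (next fetus 7.61), IYD at 7.99 in LWMS d110 replicate 2 (next 6.52), and IFN-DELTA-2 at 6.43 in LWMS d90 replicate 8 (next 4.11) and at 1.58 in LWMS d110 replicate 7 (next 3.30). The MTP18 fetus also stood apart on the copy of that probe, the MMRN2 fetus MSLW d90 replicate 6 was low on all 5 MMRN2 probes, and both IYD fetuses were high on 1 of 3 probes.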

How the results depend on the processing

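The members depended on the limits of the rule. With 90% and 10%, the LW set had 2 probes and the MS set 2. With 70% and 30% they had 19 and 14, with day 90 alone 27 and 8, and with day 110 alone 19 and 12. With the positive and significant mark the LW set had 4 probes. Leaving out MS d90 replicate 7 or MS d110 replicate 6, both chosen after seeing the data, gave 7 LW probes each, all among the 9, and 4 MS probes. In the reciprocal comparison at day 90, normexp background correction left 0 member probes called. At day 110, a fit of the crossbred fetuses alone left 1 member probe and 253 probes in all. The age change in LW called 4 of the 9 LW members with the median signal, with normexp and with the deposited values. For the difference in age change, 9 probes were called in all with the median signal, 33 with the slide as a block and 4 with the crossbred fetuses fitted alone, and no member in any of these. Leaving out each MSLW fetus of day 110 in turn, and LWMS d110 replicate 2 or MSLW d90 replicate 6 (chosen after seeing the data), gave 239 to 384 probes in all for the crosses at day 110, lowest without MSLW d110 replicate 3, and 9 to 19 for the difference in age change, lowest without MSLW d110 replicate 1. No called member value changed direction under any alternative run. Among values that were not called, the difference between the crosses changed sign without single fetuses, for MMRN2 at day 110 (0.52 to -0.34 without MSLW d110 replicate 5), for ST8SIA2 at day 110 (-0.17 to 0.26, 0.15 and 0.08 without MSLW d110 replicate 3, MSLW d110 replicate 4 or LWMS d110 replicate 2) and for IYD on A_72_P445028 (-0.04 to 0.09) and A_72_P035341 (-0.10 to 0.01) at day 90 without MSLW d90 replicate 6. Of the called member values under the alternatives, 217 kept their call and 4 lost it: SLCO4A1 at day 90 with normexp (-0.28), SLCO4A1 with age in the crosses without MSLW d110 replicate 2 (0.63), and, with crossbred or purebred fetuses fitted alone, IYD at day 110 on O1550 (-1.53) and with age in MS on A_72_P445028 (1.28). The causes were not tested. The labels give no replicate numbers shared between groups, so fetuses were paired only through the slides, as a block and within each slide. Dim members lie near the background, where the signal limits what can be measured.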

Other observations

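Of the probes that met the detection rule without a gene symbol, 4 carry a locus number that RefSeq names. TRUB1 (14 LW and 2 MS arrays) was on 14 of 16 LWMS and 7 of 13 MSLW arrays, and FGFR1OP2 (14 and 1) on 13 and 8. The MTFP1 entry is the copy of the MTP18 probe. SLC22A16, an organic cation and carnitine transporter, was detected on the MS side, on 12 MS and 2 LW arrays, and on 10 LWMS and 11 MSLW arrays. Over all 61 probes of LW-only detection, 19 were on at least 80% of the cross arrays (31.1%), and of the 29 probes of MS-only detection, 10 were (34.5%). These shares are below the 63.6% of all probes and the 69.2% of the 13 members with a gene symbol, which are among these probes. The rule left out probes detected in most arrays of both breeds, so the contrast with all probes was largely set by the choice.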
